A study of Homo sapiens with 6 samples.

Results

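Poly(A) 3′-seq reads of IMR-32 cells, an established human neuroblastoma cell line, formed peaks inside coding exons as well as at annotated transcript ends. A coding-exon peak was a peak whose summit lay in the coding sequence (CDS) of a protein-coding gene and outside a window from 200 bp upstream to 600 bp downstream of every annotated transcript end. The deposited list held 4831 such peaks of 200023. Of these, 3839 passed the cutoff that the study set on the −log10 q-value (5 or more), and they fell in 2404 genes. All results below are for these 3839 peaks unless another number is given. They made up 2.78% of the 138277 peaks on chromosomes that passed the same cutoff.

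The libraries came from cells given DMSO (2 replicates), 400 nM THZ531 for 2 h (2 replicates) or 400 nM THZ531 for 6 h (2 replicates). THZ531 is a covalent inhibitor of the transcriptional kinases CDK12 and CDK13, and DMSO is its solvent. The authors merged reads before calling peaks, so no value belongs to 1 library. A peak therefore shows that a 3′ end was captured in at least some of the cells, not in which treatment, and treatments and replicates cannot be told apart in any value below. How deeply each library was sequenced is likewise unknown. The list has no strand, and the strand of the gene at the summit was used in its place. All genes at the summit lay on 1 strand for 3504 of the 3839 peaks, and sequence was read only at these.

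Most human mRNAs are cleaved downstream of a hexamer, canonically AATAAA in DNA letters, that is bound by the cleavage and polyadenylation specificity factor, and a poly(A) tail is then added. A transcript cleaved inside its coding sequence has no stop codon in frame, and translation of such a nonstop mRNA into the tail leads to ribosome stalling and decay. The library kit primes with oligo(dT), which can also anneal to runs of adenine encoded within a transcript, and lysine (codons AAA and AAG) and glutamate (GAA and GAG) are the amino acids whose codons make coding sequence rich in purines and adenine. For each peak, the 3′ edge is its last base in the direction of transcription. As reads begin at the junction with the tail, the edge marks the last candidate cleavage site of the peak. The median distance from summit to edge was 66 bases. In wide peaks the edge can lie farther from the summit than the 100 bp to which reads were extended. Sequence at such an edge need not belong to the reads at the summit.

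Sequences at the 3′ edges of some of the tallest peaks and of peaks of genes with many of them are shown. The LUC7L3 peak was 338 bp wide with its summit at base 50745764. Reads were extended to 100 bp, so the reads at that summit do not reach the bases shown for LUC7L3. Each line gives 100 bases that end at the 3′ edge followed by the next 40 bases, on the gene strand of GRCh38, with every match to the study's 12 signal hexamers before the edge in capitals.
LUC7L3: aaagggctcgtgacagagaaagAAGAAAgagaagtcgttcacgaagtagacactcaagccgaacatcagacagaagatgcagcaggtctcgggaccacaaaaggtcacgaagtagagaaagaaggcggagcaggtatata
PHF14: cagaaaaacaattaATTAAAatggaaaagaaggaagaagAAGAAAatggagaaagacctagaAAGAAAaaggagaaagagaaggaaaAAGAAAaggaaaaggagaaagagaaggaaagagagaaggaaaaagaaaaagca
HDAC2: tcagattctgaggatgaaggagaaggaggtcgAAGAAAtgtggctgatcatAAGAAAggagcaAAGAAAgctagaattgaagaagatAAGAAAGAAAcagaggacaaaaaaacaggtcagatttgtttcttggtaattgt
EHMT2: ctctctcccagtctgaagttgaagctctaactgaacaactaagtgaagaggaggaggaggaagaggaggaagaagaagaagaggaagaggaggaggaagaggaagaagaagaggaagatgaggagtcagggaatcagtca
NUCKS1: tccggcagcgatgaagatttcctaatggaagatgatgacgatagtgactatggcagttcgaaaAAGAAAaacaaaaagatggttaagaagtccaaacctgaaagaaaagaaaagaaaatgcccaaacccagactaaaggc
CENPF: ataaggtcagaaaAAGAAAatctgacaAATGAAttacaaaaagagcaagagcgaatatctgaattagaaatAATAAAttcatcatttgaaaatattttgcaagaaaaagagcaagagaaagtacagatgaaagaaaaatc
CENPE: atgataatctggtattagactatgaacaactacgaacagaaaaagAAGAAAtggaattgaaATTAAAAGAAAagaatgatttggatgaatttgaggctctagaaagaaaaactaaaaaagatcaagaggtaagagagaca
ASPM: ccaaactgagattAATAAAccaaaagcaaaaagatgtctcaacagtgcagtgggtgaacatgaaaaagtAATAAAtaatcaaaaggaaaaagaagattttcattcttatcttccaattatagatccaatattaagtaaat
SYNE2: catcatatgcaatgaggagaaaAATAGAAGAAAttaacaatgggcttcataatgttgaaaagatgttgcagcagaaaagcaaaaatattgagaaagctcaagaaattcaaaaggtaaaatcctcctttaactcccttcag

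The windows lie in the genes' coding exons and flanking intron, LUC7L3 at chr17:50745871-50746010 (plus strand), PHF14 at chr7:10982534-10982673 (plus strand), HDAC2 at chr6:113943326-113943465 (minus strand), EHMT2 at chr6:31889474-31889613 (minus strand) and NUCKS1 at chr1:205719532-205719671 (minus strand). The others are CENPF at chr1:214646738-214646877 (plus strand), CENPE at chr4:103174724-103174863 (minus strand), ASPM at chr1:197142589-197142728 (minus strand) and SYNE2 at chr14:64078494-64078633 (plus strand). The LUC7L3, PHF14, HDAC2 and NUCKS1 windows held 1, 4, 5 and 1 matches, all but 1 of them AAGAAA, which encodes a pair of lysines when its first base starts a codon. The EHMT2 window held no match and ran through repeats of GAG and GAA. CENPF and ASPM held AATAAA itself.

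Coding-exon peaks were intermediate in height. The reads at the summit (the number of extended reads over it, solved from the deposited fold and −log10 p) had a median of 14 with quartiles of 11 and 21 and ran from 6 to 81. The median was 18 at transcript ends, 17 in other exonic sequence (untranslated and noncoding exons) and 12 in introns. At least 50 reads were found at 64 coding-exon peaks (1.67%), against 3.91% of transcript-end peaks and 0.358% of intronic peaks. The height counts reads at distinct positions under the peak caller's default setting, which is an assumption, so it is not a measure of transcript abundance. Under that setting the extension to 100 bp also limits how tall a peak can be. The tallest peak of the whole list had 200 reads. The median width was 119 bp.

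**Figure D1:**
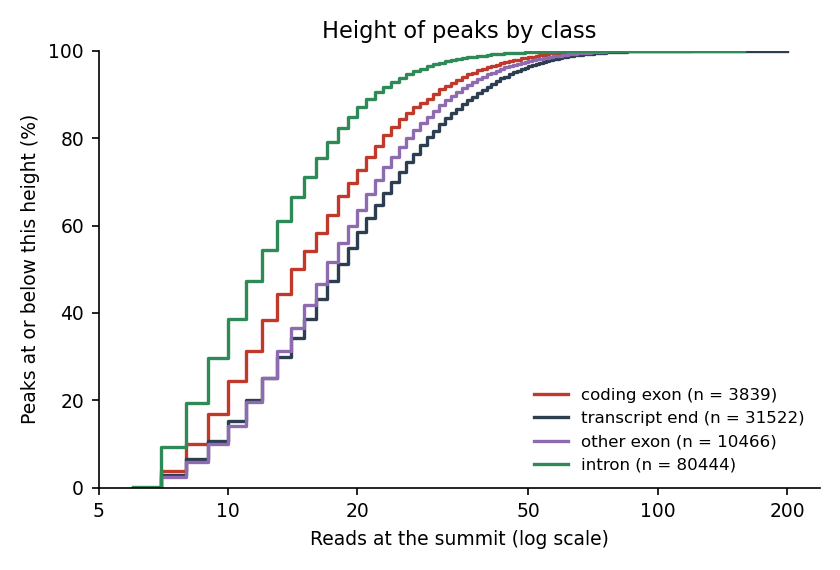
Cumulative share of peaks (vertical axis, %) against reads at the summit (horizontal axis, log scale) for 4 classes of peaks with −log10 q of at least 5. The line of the 3839 coding-exon peaks lies between that of introns (median 12) and those of other exons and transcript ends (medians 17 and 18).

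Per base, coding sequence held more peaks than introns. The coding sequence outside transcript-end windows, called eligible here because only there can such a peak lie, measured 26483 kb, or 74.1% of all CDS. It held 0.145 peaks per kb against 0.0510 per kb of intron, a ratio of 2.84 (95% interval 2.75 to 2.93, counting error only). In genes with a transcript-end peak alone the ratio was 2.59. The ratio rose with the cutoff and was 10.5 at a −log10 q of at least 20.

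The 10 tallest peaks had 66 to 81 reads and lay in 10 genes. LUC7L3 (ENSG00000108848), which encodes a U1 snRNP-associated splicing protein with an arginine-serine-rich tail, had a peak of 81 reads in coding exon 8 of 10. NCL (ENSG00000115053), the nucleolar protein nucleolin, also had a peak of 81 reads, in coding exon 4 of 14. Both genes had lower transcript-end peaks, with 50 and 73 reads for the tallest.

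GPS2, a subunit of the NCoR corepressor complex, had a peak of 75 reads in coding exon 2 of 10, and PHF14, a PHD finger protein, had 74 reads in coding exon 3 of 18. HDAC2, a histone deacetylase, had 73 reads in coding exon 12 of 14, where the sequence shown above runs through lysine codons. EHMT2, the histone H3 lysine 9 methyltransferase G9a, had 70 reads in coding exon 8 of 28 against 23 for its tallest transcript-end peak. BAZ1B, a bromodomain protein of the WICH remodelling complex, also had 70. All of these genes carried a lower peak at an annotated end.

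NUCKS1, a nuclear casein kinase substrate, had 69 reads in coding exon 6 of 7, MAN1A2, a Golgi mannosidase, had 67 in coding exon 2 of 13, and TOP1, DNA topoisomerase I, had 66 in coding exon 4 of 21. Of the 10 peaks, 7 had at least 1 of the 12 hexamers and none had AATAAA. Adenine made up 25% to 75% of the 20 bases after the edge, lowest at NCL and highest at NUCKS1. The NCL peak was 564 bp wide, and its edge lay outside the exons of the gene and beyond the reads at the summit.

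A signal hexamer was found upstream of most coding-exon peaks, but it was seldom the canonical one. At least 1 of the 12 hexamers lay in the 100 bp before the edge at 2169 of 3504 peaks, or 61.9% (95% Wilson interval 60.3 to 63.5). The share over all peaks with 1 gene strand was 63.3%, so this share is near the background of the list. Every eligible CDS base taken as an edge gave 23.9%, and the opposite strand of the same peaks gave 46.6%. The difference from the opposite strand was 15.3 percentage points (95% Newcombe interval 13.01 to 17.6). This interval treats the strands as independent, although both were read at the same peaks. Transcript-end peaks had 79.9%, and the difference of coding-exon from transcript-end peaks was −18.0 points (−19.7 to −16.4). Intronic peaks had 57.1%, and the difference from them was 4.84 points (3.18 to 6.47). Every intronic base taken as an edge gave 41.6%.

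AATAAA alone was present at 493 peaks, or 14.1% (12.96 to 15.3). Over all peaks with 1 gene strand it was present at 31.5%. Intronic peaks had 26.7% and transcript-end peaks 48.6%. The difference of coding-exon from intronic peaks was −12.6 points (−13.7 to −11.4). Coding sequence as a whole holds the hexamer less often than introns do, at 2.96% of eligible CDS bases against 8.23% of intronic bases taken as edges. Both classes of peak stood above these values. Some coding-exon peaks had an edge past their coding exon, so 2.96% is not the value for all their windows. AATAAA was found at 9.32% of the 2853 peaks whose edge did not run past the exon and at 36.6% of the 558 whose edge did. On the opposite strand of coding-exon peaks AATAAA was present at 11.3%. The strands differed by 2.80 points (1.24 to 4.35, again treated as independent).

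The hexamer most often found was AAGAAA, at 936 peaks or 26.7%. It was also the commonest of the 12 in eligible coding sequence, at 6.85% of bases. AATGAA was found at 396 peaks and ATTAAA at 290. Without AAGAAA, a choice made after seeing the data, 49.3% of peaks kept a hexamer.

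Near the edge the canonical signal stood out more clearly, in windows that could include sequence outside the CDS. Among the hexamers with at least 15 occurrences there, of 4096 possible, AATAAA was the one most over-represented at starts 10 to 35 bases before the edge, with 322 occurrences and a frequency 14.1 times that in the same window before every eligible base. Edges of peaks could lie outside coding sequence, whereas the eligible bases all lay in it. In eligible coding sequence only 125 copies of AATAAA had a peak's edge 10 to 35 bases after their start, far fewer than the 322 occurrences. The 14.1 is thus not an enrichment within coding sequence, and none was computed within it. ATTAAA was at rank 6 with 6.55 times, and AAGAAA was at rank 24 with 4.83 times. Shifted forms of AATAAA filled ranks 2 and 3. The start of AATAAA was most frequent 24 bases before the edge, where 0.771% of coding-exon peaks had it, against 1.52% of intronic peaks and 3.47% of transcript-end peaks 22 bases before theirs. Summed over starts 15 to 30 bases before the edge, the occurrences of AATAAA came to 7.42 per 100 coding-exon peaks and to 3.11 on the opposite strand, 17.8 at introns and 34.8 at transcript ends. Farther away, at 80 to 95 bases, the sum was 1.37 per 100 coding-exon peaks.

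Few copies of AATAAA in coding sequence had such a peak. Of 4757 copies in the eligible coding sequence of genes with a transcript-end peak, 117 (2.46%, 2.06 to 2.94) had a coding-exon peak whose edge lay 10 to 35 bases after their start. The share was 1.39% (1.08 to 1.79) for ATTAAA, 1.74% (1.57 to 1.94) for AAGAAA and 0.699% (0.448 to 1.09) for ACTAAA, the lowest of the 12. The reading frame of these copies was close to that of all copies. The first base of AATAAA was in codon position 1, where the hexamer reads Asn-Lys, at 58.6% of 128 occurrences before peaks and at 61.6% of 6763 in eligible coding sequence. It was in position 3 at 41.4% and 38.3%, and in position 2, where it would put a TAA stop codon in frame, at none of the 128.

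Downstream of the edge the sequence was rich in adenine over a short stretch. Adenine was found at 30.4% of the last bases of the peaks and at 60.3% of the first bases after them. The last base was a dip, as the base before it had 43.4%. Over the 20 bases before the last base adenine averaged 40.3%. Over the next 20 bases it averaged 50.1% ± 15.6 (SD over 3504 peaks), against 25.7% over all eligible coding sequence and 33.6% on the opposite strand. Intronic peaks had 57.7%, against 28.3% over all intronic bases, and transcript-end peaks had 34.7%. At base 100 after the edge the share was 28.9%. Encoded adenines at the junction cannot be told apart from the tail, so the edge is not resolved within a run of adenines.

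**Figure D2:**
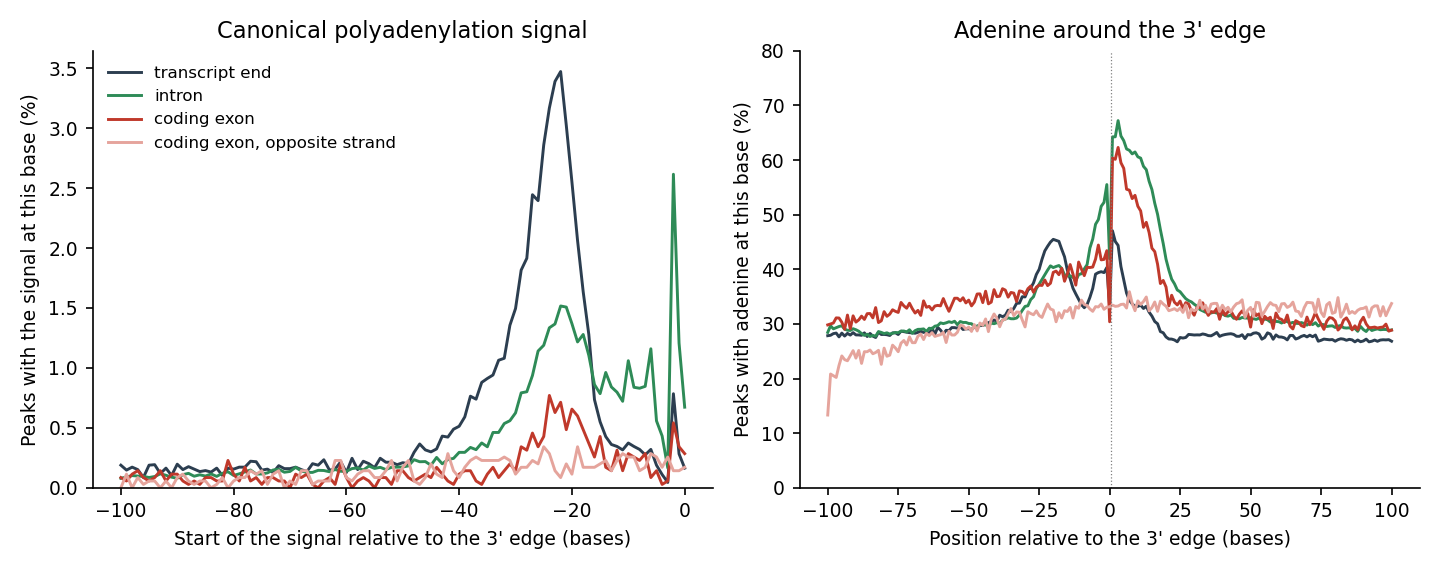
Left, share of peaks (%) with the canonical signal starting at each base before the 3′ edge, where starts within the last 5 bases run past the edge. Right, share of peaks (%) with adenine at each base around the edge (dotted line). The coding-exon line peaks at 0.771% 24 bases before the edge, far under the 3.47% of transcript ends. Its adenine share dips from 43.4% to 30.4% at the last base of the peak and is 60.3% at the next base.

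Long encoded adenine runs were rare at coding-exon peaks. Within 50 bp downstream, 25 bases in a row that held 18 A or more were found at 106 peaks, or 3.03% (2.51 to 3.65), whereas intronic peaks had 28.8%, a difference of −25.8 points (−26.4 to −25.1). The share over all peaks with 1 gene strand was 21.9%. Eligible coding sequence itself holds such a stretch at 0.115% of bases and intronic sequence at 0.989%. Both classes of peak stood above their own value. With the study's limit of 22 A, 9 peaks remained (0.257%). In the study this limit belonged to a filter that discarded peaks with such a stretch and no signal hexamer. Whether the deposited list was made before or after that filter is unknown here. A looser limit chosen after seeing the data, at least 12 A in the 20 bases after the edge, was met by 35.2% of coding-exon peaks and 56.9% of intronic peaks.

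Hexamers and adenine combined in every way. A hexamer and fewer than 12 A in 20 were found at 1418 peaks (40.5%), both features at 751 (21.4%), the adenine feature alone at 484 (13.8%) and neither at 851 (24.3%). The medians in that order were 16, 16, 12 and 13 reads at the summit. Taller peaks had a hexamer more often. The share was 53.4% (49.4 to 57.4) at 601 peaks with 6 to 9 reads and 74.5% (70.7 to 78.0) at 549 peaks with 25 to 49 reads. At 63 peaks with at least 50 reads it was 79.4% (67.8 to 87.5).

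The share with AATAAA did not follow height in this way and was 14.8% (12.2 to 17.9) in the lowest of these groups and 14.6% (11.9 to 17.8) at 25 to 49 reads. At 50 reads or more it was 12.7% (6.58 to 23.1). Among intronic peaks it was 23.5%, 34.1% and 27.4% in the same groups. The mean adenine share after the edge was between 49.7% and 51.4% in all 5 height groups of coding-exon peaks. In intronic peaks it fell from 62.2% at 6 to 9 reads to 31.3% at 50 reads or more. These are shares of different peaks in 1 pooled list, and no test was run on the trend.

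Lysine and glutamate codons were more frequent after the edge than in the same genes as a whole. In the 10 codons after the edge of 2880 peaks, lysine made up 20.9% of codons (20.5 to 21.4), against 7.45% of all codons in the same 1833 genes and 5.75% in all protein-coding genes. Glutamate made up 17.2%, against 8.61% in the same genes. AAA made up 12.8% of codons there against 4.05% in the same genes, and AAG 8.10% against 3.40%. Of the lysine codons after the edge 61.3% were AAA, and of the glutamate codons 69.4% were GAA, against 54.3% and 56.98% in the same genes. Leucine (6.02% against 9.40%), proline (2.27% against 5.63%) and alanine (3.76% against 6.33%) were less frequent there.

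The 10 codons before the edge lay between these values, with 12.5% lysine and 13.7% glutamate. At least 3 lysines in 10 codons followed 34.9% of 2862 edges and 2.81% of all windows of 10 eligible codons. At least 5 followed 134 edges (4.68%) against 0.117% of windows, and none followed 11.9% of edges against 58.8% of windows. Codons of 1 gene are not replicates, and the intervals cover counting error only.

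The peaks were spread over the whole coding sequence. For 3725 peaks (97.0%) the summit lay in the CDS of the gene's canonical transcript, and it lay at a median of 45.4% of the way from start to stop codon (quartiles 21.5% and 69.5%). The median distance to the stop codon was 1263 bases of CDS. With the CDS cut into 10 equal segments, segments 1 to 5 held 54.7% of peaks (53.1 to 56.3) and 51.7% of eligible bases. Segment 10, before the stop codon, held 7.06% (6.28 to 7.93) of peaks and 8.08% of eligible bases. The density was highest in segment 2, at 0.179 peaks per kb, and lowest in segment 10, at 0.128.

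Internal coding exons carried most of them. They held 3182 of the 3725 peaks, or 85.4% (84.3 to 86.5), on 69.2% of the eligible bases. Last coding exons held 278 (7.46%, 6.66 to 8.35) on 11.8% of the bases, first coding exons 195 (5.23%) on 11.6% and single coding exons 70 (1.88%) on 7.31%. In genes with a transcript-end peak the density was 0.246 per kb in internal, 0.139 in last, 0.0939 in first and 0.0743 in single coding exons. AATAAA was found at 22.98% of the peaks in last and 13.2% of those in internal coding exons. By exon length, again in genes with a transcript-end peak, the density was highest in exons of 100 to 149 bp (0.283 per kb, 1165 peaks) and lowest in exons of 1000 to 2999 bp (0.123 per kb, 257 peaks).

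**Figure D3:**
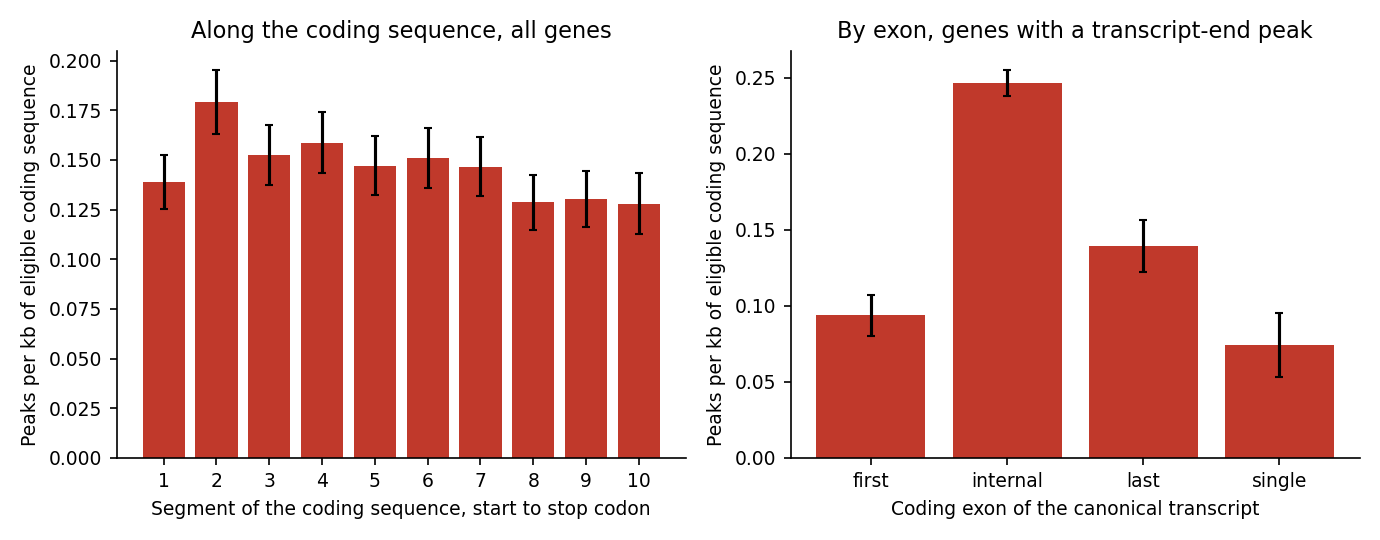
Coding-exon peaks per kb of eligible coding sequence (vertical axes) by segment of the coding sequence from start to stop codon in all genes (left) and by kind of coding exon in genes with a transcript-end peak (right). Error bars are 95% intervals for counting error. The 10 segments run from 0.128 to 0.179 and internal exons reach 0.246.

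Of the 3067 peaks covered by at least 2 coding transcripts, 2524 (82.3%) had the summit exonic in all of them, a share that was not set against all coding sequence. The edge of the peak ran past the end of the coding exon at 616 of 3725 peaks (16.5%, 15.4 to 17.8). With every eligible base as a summit and the distances from summit to edge of these same peaks, 36.3% would do so. At the peaks that ran past the exon, AATAAA was found at 36.6% (32.7 to 40.6) against 9.32% (8.31 to 10.4) at the others, a difference of 27.2 points (23.2 to 31.4). Their windows include sequence outside the coding exon. The part of that sequence in the difference was not tested. Adenine after the edge was 41.4% against 52.1%.

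Windows of 3 of the 5 tallest such peaks are shown with coding bases in capitals and intron in lower case, again 100 bases to the edge and 40 after it. They were chosen after their values were seen.
DYNC1I2: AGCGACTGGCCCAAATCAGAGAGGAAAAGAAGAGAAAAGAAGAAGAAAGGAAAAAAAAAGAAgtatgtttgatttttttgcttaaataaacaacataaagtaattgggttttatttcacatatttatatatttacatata
SMC1A: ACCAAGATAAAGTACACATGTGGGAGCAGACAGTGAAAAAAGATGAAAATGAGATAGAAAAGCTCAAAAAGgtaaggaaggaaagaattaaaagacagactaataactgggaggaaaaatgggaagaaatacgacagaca
ZRANB2: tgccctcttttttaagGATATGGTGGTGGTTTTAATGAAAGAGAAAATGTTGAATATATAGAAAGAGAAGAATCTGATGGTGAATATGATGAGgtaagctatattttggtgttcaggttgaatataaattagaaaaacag

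These windows lie at other coding exons, DYNC1I2 at chr2:171690202-171690341 (plus strand), SMC1A at chrX:53399520-53399659 (minus strand) and ZRANB2 at chr1:71072425-71072564 (minus strand). DYNC1I2 encodes an intermediate chain of the dynein motor, SMC1A a cohesin subunit and ZRANB2 a splicing-associated zinc finger protein. Their peaks had 56, 53 and 53 reads. The DYNC1I2 window holds AATAAA in the intron just after the exon, within the last 100 bases before the edge.

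Coding-exon peaks were uneven across genes. Of the 2404 genes, 1652 had 1 peak, 418 had 2 and 71 had at least 5. At least 1 was found in 2294 of the 12834 protein-coding genes with a transcript-end peak (17.9%). The 10 genes with the most had between 4.06 and 23.5 kb of CDS.

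SYNE2, the giant nuclear envelope protein nesprin-2, had 18 peaks of 7 to 23 reads (median 12) on 20.7 kb of CDS. They lay in 15 coding exons of 115, with 4 in the 2101 bp exon 47. DST, the cytolinker dystonin, had 16 peaks of 9 to 26 reads (median 10.5) on 23.5 kb. Both genes had peaks along much of the coding sequence and transcript-end peaks of about the same height, with 26 and 22 reads for the tallest.

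CENPF, a large coiled-coil protein of the kinetochore and the nuclear matrix, had 13 peaks of 19 to 55 reads (median 27) on 9.34 kb, 5 of them in its 3404 bp exon 11. CENPE, the kinetochore motor, and CEP290, a centrosome and cilium protein, had 11 peaks each, of 9 to 36 and 9 to 34 reads. These 2 genes had the highest adenine content of the 10, at 42.1% and 42.0% of the CDS against a median of 25.7% over genes with a transcript-end peak and at least 300 eligible bases. TPR, the nuclear pore basket protein, had 11 peaks of 10 to 29 reads, in 11 different exons, all but 2 of them taller than its single transcript-end peak of 13 reads. BDP1, a subunit of the RNA polymerase III factor TFIIIB, had 11 peaks of 9 to 36 reads and no transcript-end peak that passed the cutoff.

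AKAP9, a centrosomal and Golgi scaffold of protein kinase A, had 10 peaks of 9 to 43 reads. ROCK1, a kinase with a long coiled coil, had 10 peaks of 13 to 56 reads on 4.06 kb, the highest density of the 10 genes at 2.67 per kb. ASPM, a spindle pole protein, had 9 peaks of 11 to 28 reads and was 1 of 3 genes with that number. Of the 116 peaks of these 10 genes with 1 gene strand, 14 had AATAAA.

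Genes with adenine-rich coding sequence held most of the peaks. Among 10840 genes with a transcript-end peak and at least 300 eligible bases, the quartile with the lowest adenine content (up to 21.4%) had 0.0203 peaks per kb and the quartile with the highest (from 30.03% to 46.4%) had 0.480 per kb. At least 1 peak was found in 2.51% and 43.8% of these genes. The density also followed the height of the gene's tallest transcript-end peak, from 0.114 per kb in the lowest quartile to 0.310 in the highest. Within each quartile of adenine content the density was higher at each step of transcript-end height, from 0.276 to 0.676 per kb in the most adenine-rich quartile.

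Over these genes, Spearman's rho of peaks per kb was 0.41 with adenine content, 0.33 with the lysine share and 0.13 with the tallest transcript-end peak. These are descriptions over genes of 1 pooled list, which share libraries and base composition. The share of genes with a peak also rose with gene length, from 6.83% in the shortest quartile (up to 17.2 kb) to 32.4% in the longest (from 95.7 kb), whereas the density per kb was 0.0878 in the shortest, 0.267 in the third and 0.243 in the longest quartile.

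**Figure D4:**
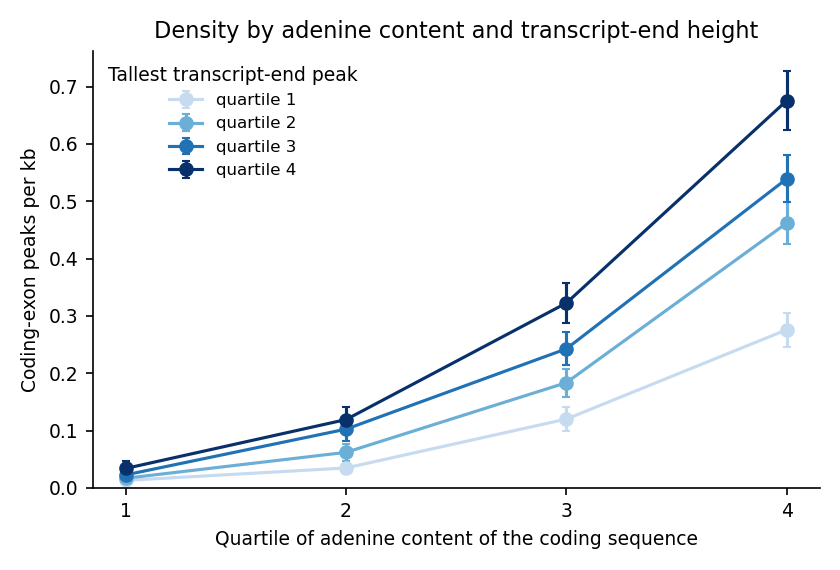
Coding-exon peaks per kb of eligible coding sequence (vertical axis) by quartile of adenine content of the CDS (horizontal axis), 1 line for each quartile of the tallest transcript-end peak, in 10840 genes. Error bars are 95% intervals for counting error. All lines rise with adenine content, to 0.276 in the lowest and 0.676 in the highest quartile of transcript-end height.

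The gene groups followed a wide range. Of 12834 genes with a transcript-end peak, 17.9% had a coding-exon peak, with 0.217 peaks per kb of eligible CDS. Mitotic and centrosomal coiled-coil proteins had the highest share of the groups, with a peak in 39 of 43 genes (90.7%) and 0.946 per kb. Chaperones had a peak in 13 of 22 genes and 0.970 per kb, led by CCT6A, a subunit of the chaperonin TRiC, with 56 reads. HSP90B1, the chaperone of the endoplasmic reticulum, had 3 peaks and HSPD1, the mitochondrial chaperonin, had 2, with up to 50 and 52 reads.

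Nucleolar and ribosome assembly genes had a peak in 20 of 32 genes and 0.914 per kb, and their median lysine share was 11.3% of codons. Besides NCL with 4 peaks, NOP14, a factor of small-subunit assembly, had 5 of up to 28 reads. Splicing and RNA processing genes had a peak in 29 of 48 genes and 0.808 per kb. SON, a splicing cofactor, had 7 peaks of up to 53 reads and DDX46, a spliceosomal helicase, had 6 of up to 55.

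Translation factors had a peak in 8 of 28 genes and 0.743 per kb, of which EIF5B, a GTPase of subunit joining, had 6 of up to 57 reads. Neuronal cytoskeleton genes had a peak in 16 of 29 genes and 0.468 per kb, with MAP1A, a microtubule-associated protein of neurons, at up to 50 reads against 19 at its transcript end. Chromatin regulators had a peak in 40 of 52 genes and 0.397 per kb. ATRX, a chromatin remodeller, had 8 peaks of up to 30 reads and BPTF, the largest subunit of NURF, had 7 of up to 46.

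Cytosolic ribosomal protein genes had a peak in 11 of 83 (13.3%). Their eligible coding sequence came to 15.97 kb in all, which gives 0.689 peaks per kb. Their transcript-end peaks had a median of 54 reads. RPS27L had the tallest with 43 reads, as tall as its transcript-end peak. Glycolysis genes had a peak in 2 of 16 and 0.162 per kb, GAPDH with 30 reads and GPI with 15. Of 13 neuroblastoma regulator genes with a transcript-end peak, most of them transcription factors, 2 had a peak (0.138 per kb). These were the transcription factor TFAP2B with 21 reads and LIN28B, which encodes an RNA-binding protein, with 10.

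Zinc finger ZNF genes had a peak in 47 of 425 genes and 0.117 per kb, although their median adenine content was 32.2%. ZNF79 had the tallest, with 42 reads. Clustered protocadherin genes had a peak in 5 of 43 and 0.0501 per kb, of which PCDHGA12 had 17 reads. None of the 28 replication-dependent histone genes with a transcript-end peak had one (0 to 12.1%, Wilson). Their eligible coding sequence came to only 6.33 kb in all, so few such peaks could be found there. Among histone genes with no transcript-end peak, 4 had a coding-exon peak, with H1-2 at 33 reads.

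The study's DNA damage response genes had a coding-exon peak in 52 of 137 genes with a transcript-end peak, or 38.0% (30.3 to 46.3), with 0.433 per kb. RIF1, a factor of double-strand break repair, and PRKDC, the catalytic subunit of DNA-dependent protein kinase, had 6 each, and RFC1, the large subunit of the clamp loader, had the tallest with 39 reads. The median adenine content of these genes was 29.2%, against 25.6% over all genes with a transcript-end peak. Genes on the study's list of premature cleavage and polyadenylation had one in 242 of 765, or 31.6% (28.4 to 35.01), with 0.335 per kb and a median adenine content of 29.3%. The study chose the latter genes on nascent RNA of cells given THZ531 or DMSO, and no test was run on any group.

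BLM, the helicase of Bloom syndrome, had 4 coding-exon peaks with 14, 11, 11 and 8 reads against 29 at its tallest transcript end. The tallest lay in coding exon 1 at codon 11, had AATAAA and had only 25% adenine after the edge. BRCA1, a factor of homologous recombination, had 3 peaks with 13, 13 and 12 reads, all in its 3426 bp coding exon 9. They lay at 38.4%, 58.5% and 47.4% of the CDS and had 60% to 70% adenine after the edge.

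BARD1, the partner of BRCA1, had 1 peak with 19 reads in coding exon 4 of 11, taller than its tallest transcript-end peak of 15. PCF11, a cleavage and termination factor, had 1 with 26 reads in coding exon 5 of 16, against 57 at its transcript end. No coding-exon peak was found in MYCN, the amplified driver transcription factor of many neuroblastomas, or in CDK12, CDK13 and CCNK, which encodes their partner cyclin K. The tallest transcript-end peaks of these 4 genes had 100, 19, 28 and 39 reads in that order.

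Most coding-exon peaks were lower than the end of their gene. Of the 2404 genes, 2294 (95.4%, 94.5 to 96.2) also had a transcript-end peak, against 64% of all 20046 protein-coding genes. The median ratio of a coding-exon peak to the gene's tallest transcript-end peak was 0.550 (quartiles 0.387 and 0.808). If heights count distinct positions, they are limited, and these are not ratios of transcript amounts. Of 3696 peaks in genes with both, 508 (13.7%, 12.7 to 14.9) in 421 genes were taller than every transcript-end peak. Intronic peaks in genes with a transcript-end peak did so at 9.75% (9.54 to 9.97).

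The largest ratio was found in HDGFL3, a relative of hepatoma-derived growth factor, with 43 reads in coding exon 4 against 10 at its transcript end, a ratio of 4.30. Its edge lay in another exon of the annotation, outside coding sequence. MAN1A2 had 67 against 17 (3.94), ESF1, a nucleolar protein, had 54 against 16 (3.38), and TAF3, a TFIID subunit, had 50 against 16 (3.13). UBXN4, an endoplasmic reticulum protein, had 56 against 18 (3.11). All 5 had a hexamer and none had AATAAA, and all but HDGFL3 had at least 60% adenine after the edge. These features were read at the edge, which in a wide peak such as that of ESF1 (328 bp) lies beyond the reads at the summit.

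**Figure D5:**
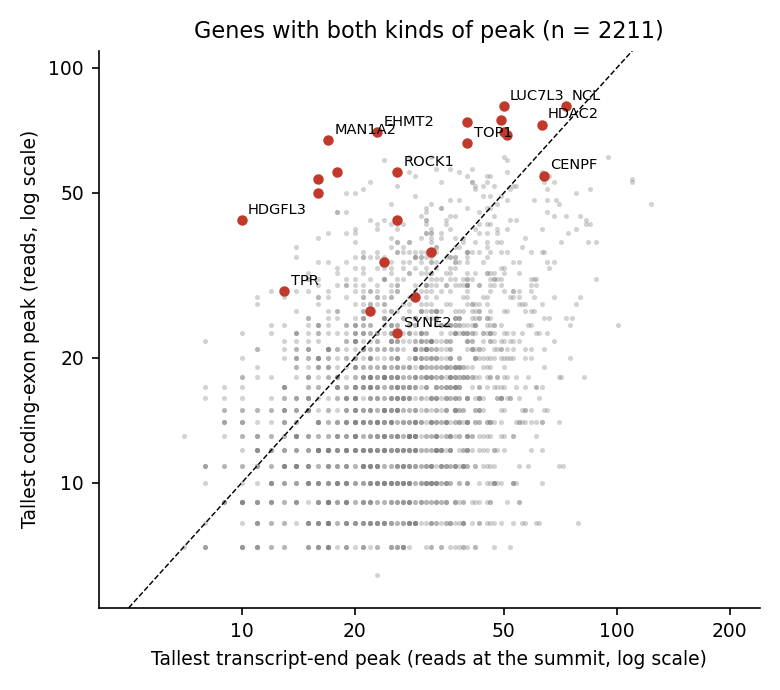
Tallest coding-exon peak against tallest transcript-end peak of each gene, both in reads at the summit on log scales, for 2211 genes with both and at least 300 eligible bases. Red points are the named genes with the tallest or the most peaks, and the dashed line marks equal heights. Most genes lie below the line, and MAN1A2 (67 against 17) and HDGFL3 (43 against 10) lie far above it.

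Median heights on either side of the upstream limit of the rule were alike. The 146 peaks 201 to 300 bases upstream of an annotated end of their own gene had a median of 18 reads. The 241 peaks in coding sequence 100 to 200 bases upstream of an end, which the rule leaves out, had 17. Over all coding-exon peaks the median was 14, and over transcript-end peaks it was 18. Sequence features were not compared across this limit. The 992 coding-exon peaks below the cutoff on −log10 q were not described further. The sequence of 217 peaks (5.65%, 4.97 to 6.43) matched another place in the genome at 95 or more of 100 bases, and reads there can come from either copy. At 72 peaks the summit lay in the CDS of more than 1 gene.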

How the data were processed

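Poly(A) 3′-seq libraries (6, in 3 groups of 2) were made by the authors with a kit whose reads start at the junction with the poly(A) tail, mapped to GRCh38 with STAR 2.5.1b keeping reads with up to 20 placements, merged, and given to MACS2 2.1.1 with reads extended to 100 bp and no control. The merged samples, not listed in the methods, are taken to be these 6 libraries. The deposited list gives per peak a fold (ratio of pileup plus 1 to local background plus 1), a −log10 p-value and a −log10 q-value by the authors, a score (the −log10 q scaled, not used) and the summit offset as another column. Values are of 1 pooled list, so there was no test between groups and every interval covers counting error only. The depth of each library is unknown.

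The pileup was solved here from fold and −log10 p (largest misfit 0.000172), after the method was tested on simulated data. Annotation was Gencode release 44 (the study used release 27), and coordinates are 1-based. Peaks with −log10 q of at least 5 on the chromosomes were used. Hexamers were the study's 12, searched on the gene strand, and shares over all eligible CDS or intronic bases were counted exhaustively. Codons and positions came from the canonical transcript. Copies were sought with minimap2 2.31-r1302. Shares have Wilson and differences Newcombe 95% intervals (Python 3.11.15, numpy 2.4.6, pandas 2.3.3).

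The genes named were the 10 with the most peaks, those of the 10 tallest peaks, of the tallest peak in each gene group, the 5 whose peak most exceeds their transcript end, and BARD1, BLM, BRCA1, PCF11, MYCN, CDK12, CDK13 and CCNK. Further genes of a group with the most peaks were chosen after their values were seen. Members and groups were chosen with earlier results of these data known. Groups were matched by symbol. Of 161 distinct entries of the study's DNA damage response list 146 matched a gene by symbol or older symbol, and 803 of its 809 genes with premature cleavage and polyadenylation by identifier. Other cutoffs, windows and hexamer sets were tried as alternatives.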

Additional observations from a re-analysis of the deposited data

How the results depend on the processing

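No paired analysis was possible because every value comes from the merged reads of all libraries, and for the same reason no replicate could be left out. Of 35 alternatives over 11 results, 15 stayed within 1.5 times (counts), the quartiles (median) or the 95% interval of the value reported. With a −log10 q of at least 20, the peaks numbered 527, the ratio to introns was 10.5 and the median was 31 reads. A hexamer was found at 81.4% and at least 18 A in 25 at 3.68%. Segment 10 of the CDS held 5.04% and the last coding exon 5.62%, and lysine was 21.7%. A transcript-end peak was found in 59.2% of the genes, with the cutoff of 20 set on transcript-end peaks as well. With no cutoff the ratio was 2.31 and the hexamer share 59.4%. With genes with a transcript-end peak alone the ratio was 2.59. The hexamer share was 14.1% for AATAAA alone, 20.8% with ATTAAA added, 44.9% in 50 bp, 41.3% in the 100 bp ending at the summit and, added after seeing the data, 49.3% without AAGAAA. The adenine share was 0.257% at 22 A in 25 and 35.2% at 12 A in 20, the latter added after seeing the data. Lysine was 15.3% over 20 codons. The cause of these shifts was not tested. The alternatives for taller peaks and for genomic copies stayed within the interval. Because reads were pooled, no peak can be assigned to a treatment or to a replicate.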
